A study of Mus musculus with 11 samples.

Results

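Calcr, Cd34, Chrdl2, Col15a1 and Bmp6 are 5 genes linked to the quiescent state of muscle satellite cells (SCs), the stem cells that lie between a muscle fiber and its basal lamina. Their chromatin was described from the peaks that fell in 1 fixed window per gene in NCBI37/mm9, at chr6:3625000-3725000 for Calcr, chr1:196750000-196800000 for Cd34, chr7:107135000-107205000 for Chrdl2, chr4:47205000-47345000 for Col15a1 and chr13:38420000-38605000 for Bmp6. The windows held 91 of the 212879 peaks of all 8 lists. No gene annotation of mm9 was used here, so a window may also hold peaks of a neighboring gene, and exons, introns and transcription start sites (TSSs) could not be assigned to peaks.

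Histone marks were profiled by ChIP-seq, which sequences the DNA pulled down by an antibody, in male C57BL/6 mice. Quiescent SCs (QSCs) were sorted as VCAM+/CD31-/CD45-/Sca1- cells from uninjured hindlimb muscle of young mice, aged 2 to 3 months, or old mice, aged 22 to 24 months, and no genetic modification is given for any group. Activated SCs (ASCs) came from young mice. The sample descriptions present them as sorted QSCs plated on an ECM coat in F10 medium with horse serum for 3 days, whereas the paper describes cells activated in vivo after muscle injury, and this difference could not be settled here. H3K4me3 and H3K27me3 were profiled in all 3 cell states, and H3K36me3 in young QSCs and young ASCs. Crosslinked cells were stored frozen until enough had been collected, so a library can hold cells of several sorts, and the number of animals is not given in the sources used here. Cd34 and Calcr are themselves markers of SCs and carried H3K4me3 in each state. This is no check of identity, since 78.6% and 80.5% of all H3K4me3 peaks of young QSCs were also called in ASCs and in old QSCs. Pax7, Myf5 and the other defining markers, and the genes of the cells removed by the sort, were not placed in the genome.

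With 1 library for each cell state and mark, no test between cell states was possible, and every difference below is a difference between single libraries, in which cell state, depth and the quality of the immunoprecipitation cannot be told apart. The number of reads is unknown. The H3K4me3 lists held 24701 peaks in young QSCs, 32846 in ASCs and 24453 in old QSCs. The H3K27me3 lists held 11658, 38307 and 17635 peaks in the same order, and the H3K36me3 lists 20399 in young QSCs and 42880 in ASCs. The ASC lists were thus the longest for every mark. The score of a peak is the one the peak caller MACS gives, 10 times the negative logarithm to base 10 of its p-value. It starts at 50, and many strong peaks are tied at 3100. Because scores depend on depth, they were read only within a list, as the share of the peaks of that list with a lower score.

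H3K4me3 is deposited around the TSSs of genes that are transcribed or ready to be transcribed. H3K36me3 is laid down along the body of genes during elongation by RNA polymerase II, and H3K27me3 is the product of Polycomb repressive complex 2 and is associated with repression. A promoter that carries both H3K4me3 and H3K27me3 is called bivalent. Quiescence genes are expressed in undisturbed SCs and are downregulated when the cells leave quiescence. Calcr encodes the calcitonin receptor, a G protein-coupled receptor through which SCs receive a signal that keeps them quiescent. Cd34 encodes a sialomucin of the cell surface. Chrdl2 encodes chordin-like 2, a secreted protein that binds bone morphogenetic proteins (BMPs), and Bmp6 encodes a secreted BMP ligand. Col15a1 encodes the alpha 1 chain of type XV collagen, a component of basement membranes.

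Both H3K4me3 and H3K27me3 are known to favor DNA rich in CG dinucleotides, so the promoters of the members are shown with every CG in capitals. The sequences are from RefSeq in the assembly GRCm38.p6, which is not the build of the peaks, and whether a peak covers the start shown could not be checked. Of the 5 members, 4 have an entry, each reaching from 250 bases before to 50 bases after a listed start. Calcr has 2 entries, and the one with more CG is printed.

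Calcr, chr6:3763574-3763873, minus strand: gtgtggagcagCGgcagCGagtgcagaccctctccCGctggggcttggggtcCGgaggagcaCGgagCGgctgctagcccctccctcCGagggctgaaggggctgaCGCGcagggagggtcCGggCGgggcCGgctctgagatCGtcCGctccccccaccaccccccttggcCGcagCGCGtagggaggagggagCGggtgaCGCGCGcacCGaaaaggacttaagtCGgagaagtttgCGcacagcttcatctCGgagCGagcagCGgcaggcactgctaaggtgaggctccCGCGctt
Bmp6, chr13:38345466-38345765, plus strand: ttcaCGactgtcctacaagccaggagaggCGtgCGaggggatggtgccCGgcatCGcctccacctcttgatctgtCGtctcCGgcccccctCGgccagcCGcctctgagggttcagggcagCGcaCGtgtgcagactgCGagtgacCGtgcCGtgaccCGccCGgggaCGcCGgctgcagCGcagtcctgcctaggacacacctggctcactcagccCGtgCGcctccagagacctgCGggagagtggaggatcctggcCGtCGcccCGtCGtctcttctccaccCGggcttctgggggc
Cd34, chr1:194938571-194938870, plus strand: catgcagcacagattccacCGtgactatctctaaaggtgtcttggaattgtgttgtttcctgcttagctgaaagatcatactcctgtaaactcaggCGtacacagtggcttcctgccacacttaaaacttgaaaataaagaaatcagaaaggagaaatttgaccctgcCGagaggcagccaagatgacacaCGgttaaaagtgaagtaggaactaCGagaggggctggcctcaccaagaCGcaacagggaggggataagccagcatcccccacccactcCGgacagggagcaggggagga
Col15a1, chr4:47207762-47208061, plus strand: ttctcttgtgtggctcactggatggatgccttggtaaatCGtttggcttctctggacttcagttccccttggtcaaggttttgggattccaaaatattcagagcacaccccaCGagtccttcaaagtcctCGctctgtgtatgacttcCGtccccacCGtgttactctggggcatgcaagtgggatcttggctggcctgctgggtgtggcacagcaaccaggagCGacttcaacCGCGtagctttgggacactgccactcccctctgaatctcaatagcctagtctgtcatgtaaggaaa

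The printed entry of Calcr held 29 CG and the promoter of Bmp6 held 27. Of all 32851 promoters of 300 bases, 12.9% held at least 29 and 15.5% at least 27. The promoters of Cd34 and Col15a1 held 7 and 8, near the median of 7, and 52.1% and 48.6% of all promoters held as many or more. The other entry of Calcr held 4, and 68.6% of all promoters held as many or more. At least 1 CG, a motif that reads the same on both strands, was found in 94.6% of all promoters.

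Each window had a main H3K4me3 site, defined as the highest-scoring H3K4me3 peak of young QSCs in it. The main site of Calcr lay at chr6:3712994-3714615 with a score of 1240, and 61.6% of the young QSC list scored lower. That of Cd34 lay at chr1:196764656-196765870 with a score of 915, above 55.9% of the list. For Chrdl2 it lay at chr7:107153380-107156654 with a score of 1006, above 57.4% of the list, for Col15a1 at chr4:47220168-47223295 with a score of 2757, above 82.4%, and for Bmp6 at chr13:38436542-38440062 with a score of 3100, above 85.7%. Each main site thus ranked above the middle of its list, which the choice of the highest-scoring peak of a window favors. Chrdl2, Col15a1 and Bmp6 had broad main sites of 3275, 3128 and 3521 bp, wider than 96.8%, 96.2% and 97.6% of the list. The sites of Calcr and Cd34 were 1622 and 1215 bp wide, wider than 63.6% and 41.9%.

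**Figure D1:**
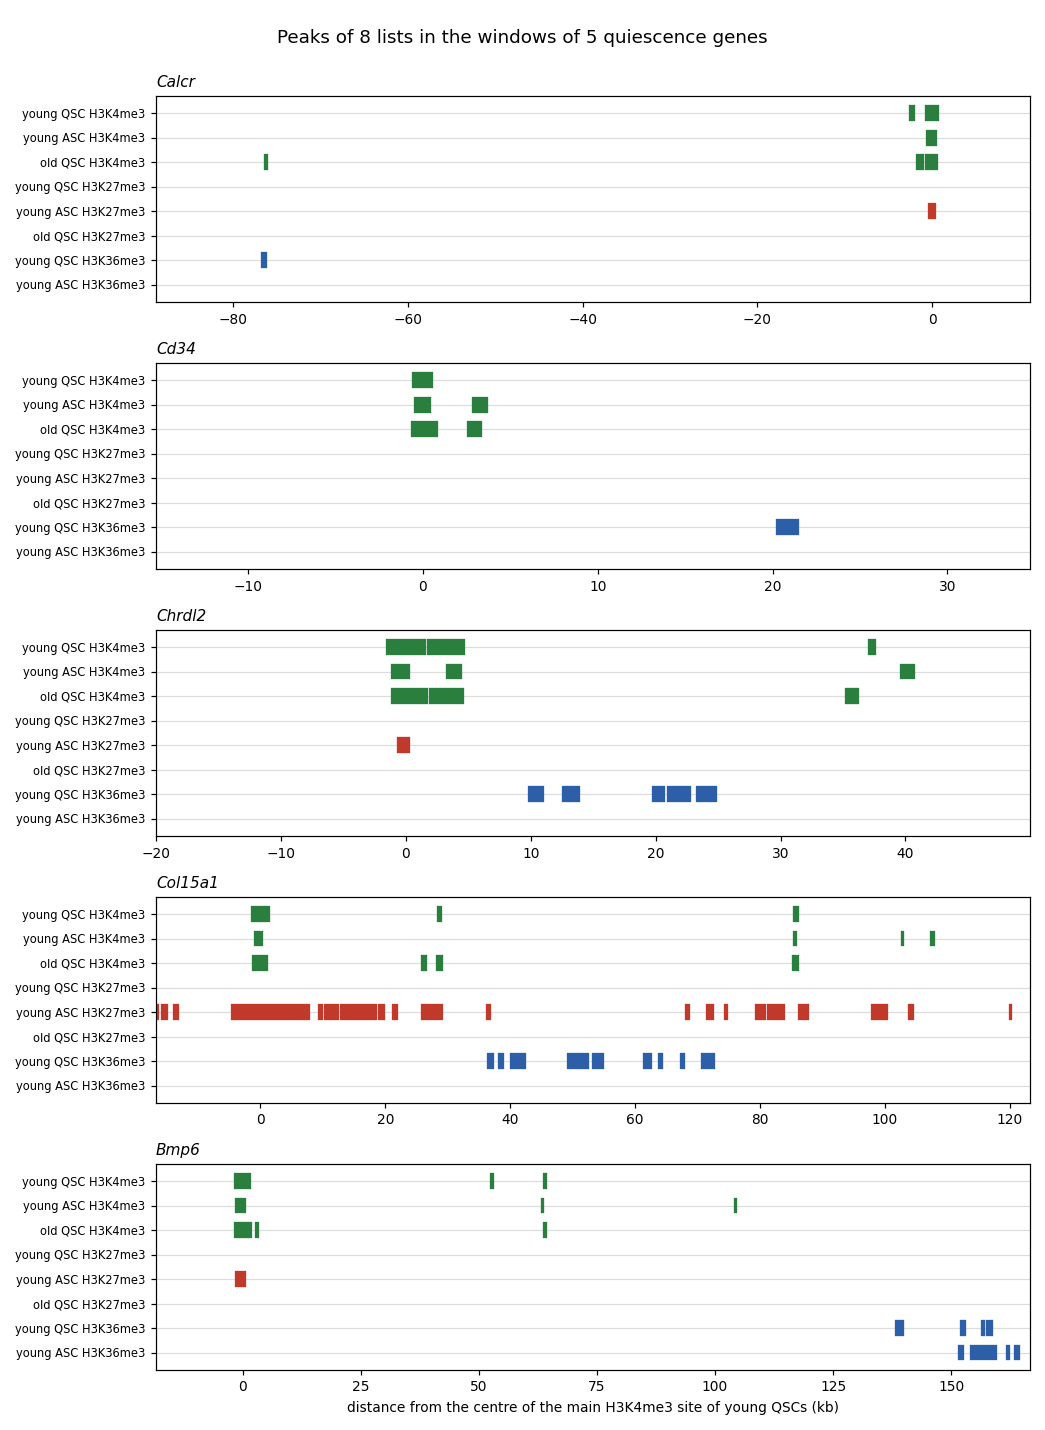
Peaks of the 8 lists (rows, named by cell state and mark) in the window of each gene. The x axis gives the distance in kb from the centre of the main H3K4me3 site of young QSCs in the direction of increasing position, bars are peaks drawn to scale, and empty rows are lists with no peak in that window. The H3K27me3 row is empty for young and old QSCs at all 5 genes, and the H3K36me3 row of ASCs is empty at all genes other than Bmp6.

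All 5 main sites were called for H3K4me3 in ASCs, and all 5 in old QSCs. This is close to what most sites show, since 78.6% of all H3K4me3 peaks of young QSCs overlapped a peak in ASCs and 80.5% overlapped a peak in old QSCs. The site of Calcr ranked above 59.8% of the ASC list and 57.8% of the old list, and that of Cd34 above 55.8% and 58.0%. Chrdl2 stood above 65.2% in ASCs and 62.9% in old QSCs. Col15a1 stood above 63.3% in ASCs and 72.9% in old QSCs. Bmp6 had the tied score of 3100 in every list. Because the lists differ in length, no change of rank between cell states was read from these shares.

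The H3K4me3 peak at the main site was narrower in ASCs than in young QSCs at all 5 genes. At Chrdl2 it was 3275 bp wide in young QSCs, 1478 bp in ASCs and 2920 bp in old QSCs. At Col15a1 the widths were 3128, 1449 and 2630 bp in the same order. In ASCs the peaks of these genes thus had 45.1% and 46.3% of their width in young QSCs. Bmp6 had peaks of 3521, 2425 and 3929 bp, Calcr of 1622, 1220 and 1505 bp, and Cd34 of 1215, 1000 and 1570 bp. The order of the genes by width differed between states, and Cd34 was the narrowest in young QSCs and in ASCs but not in old QSCs.

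Most H3K4me3 sites were not narrower in ASCs in the same libraries. Among the 17567 sites with 1 peak in each list, 38.3% were narrower in ASCs, and the median log2 ratio of ASC to young QSC width was 0.11. For the highest-scoring site of each 100 kb tile of the genome, chosen by the same rule as the main sites, the share was 33.4%. The log2 ratio was -1.15 at Chrdl2 and -1.11 at Col15a1, below which lay 1.25% and 1.41% of the 17567 sites. It was -0.54 at Bmp6, -0.41 at Calcr and -0.28 at Cd34, with 7.59%, 10.9% and 16.5% of sites below. These shares were not matched for width. In young QSCs the peaks of Chrdl2, Col15a1 and Bmp6 were 3128 to 3521 bp wide, while the median of the 17567 sites was 1553 bp. Whether sites of like width in young QSCs narrowed as much was not tested. The members are quiescence genes, and the study displays most of them as downregulated in ASCs. The contrast in width is thus not independent evidence of a direction. In old QSCs the 5 peaks did not differ in 1 direction. They were narrower at 3 genes and wider at Cd34 and Bmp6, with log2 ratios from -0.25 at Col15a1 to 0.37 at Cd34, while 33.8% of 18717 sites with 1 peak in each list were narrower in old QSCs. The old peak of Chrdl2 touched 2 peaks of young QSCs and is not among those sites.

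**Figure D2:**
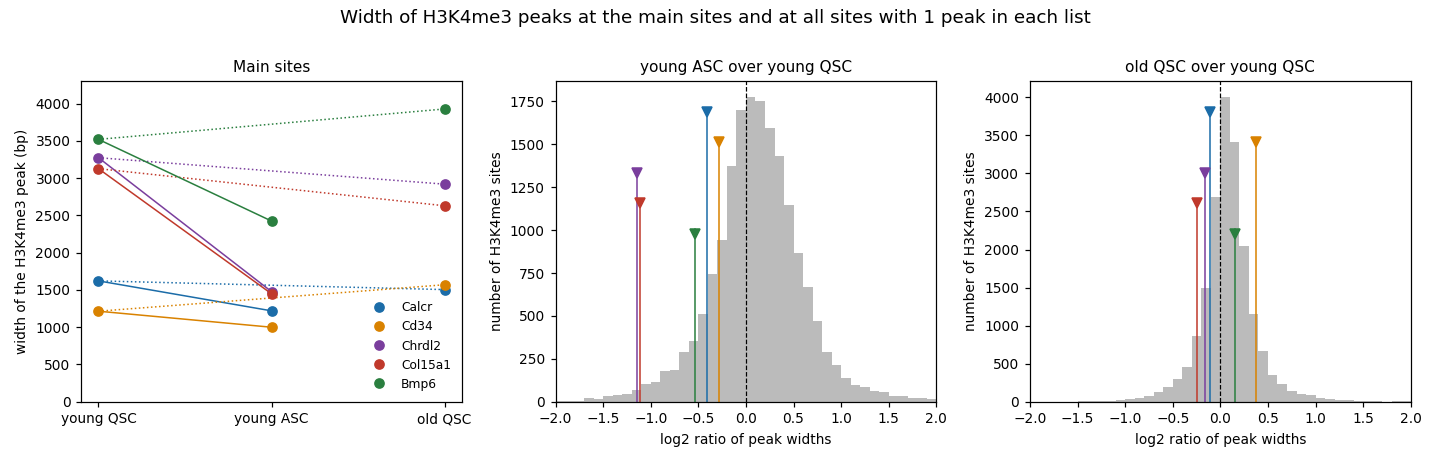
Left, width in bp of the H3K4me3 peak at the main site of each gene in 3 libraries, with solid lines from young QSCs to ASCs and dotted lines from young to old QSCs. Middle and right, histograms of the log2 ratio of peak widths over all H3K4me3 sites with 1 peak in each list, with the 5 genes as colored lines whose heights carry no meaning. In ASCs all 5 genes lie left of 0, between -1.15 and -0.28, and in old QSCs they lie on both sides.

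Chrdl2 also differed in how the mark was laid out. In young QSCs a further H3K4me3 peak of 3051 bp, with a score of 257, followed the main site after a gap of 27 bp. Old QSCs had a similar layout, with a neighbor of 2821 bp and a score of 264. In ASCs the neighbor was 1286 bp wide, with a score of 232, and began 1570 bp beyond the end of the young QSC site. The H3K4me3 length in the window was 6.97 kb in young QSCs, 6.89 kb in old QSCs and 3.93 kb in ASCs. Over all 5 windows H3K4me3 covered 20.6 kb in young QSCs, 14.0 kb in ASCs and 23.8 kb in old QSCs. The ASC length was 0.680 of that in young QSCs, whereas over the whole lists it was 1.32 times that in young QSCs. Since the members were picked as quiescence genes, this contrast is not independent evidence of a direction. By gene, the H3K4me3 length was lower in ASCs at 4 genes and higher at Cd34, where 1.22 kb in young QSCs compared with 1.89 kb in ASCs. The old length was 1.16 times the young length in the windows and 1.05 times over the whole lists, and it was higher at 4 genes and lower at Chrdl2. Only with scores of at least 100 did the direction turn at 2 of these genes, to 1.62 kb in young and 1.5 kb in old QSCs at Calcr, and to 6.33 and 6.89 kb at Chrdl2.

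H3K27me3 was not called anywhere in the 5 windows in young QSCs, and 0 of the 5 main sites overlapped it. Of all H3K4me3 peaks of young QSCs 14.0% did, so that 0 of 5 is not far from the background. A share by windows was not computed for young QSCs. In ASCs an H3K27me3 peak was called at the main site of 4 genes, Calcr, Chrdl2, Col15a1 and Bmp6, and at no place in the window of Cd34. Of all 21255 H3K4me3 peaks of young QSCs that were free of H3K27me3, 15.0% overlapped an H3K27me3 peak in ASCs, and of the highest-scoring sites of 100 kb tiles 17.2% did. The study itself displays these 4 genes as examples of downregulated genes with H3K27me3 in ASCs, so that their count is not independent evidence of a direction. Counted by window rather than by site, 42.6% of the 100 kb tiles with H3K4me3 and no H3K27me3 in young QSCs held an H3K27me3 peak in ASCs. The list of ASCs is the longest of the H3K27me3 lists, and 2 of the 4 peaks are lost when the lists are set to 1 length, as given below for each gene.

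The 4 genes differed widely in the extent of H3K27me3. Calcr had a single peak of 933 bp in ASCs, at chr6:3713311-3714243, with a score of 151, above 68.0% of the list. It lay entirely within the H3K4me3 peak of ASCs and took up 76.5% of it. Chrdl2 had a single peak of 1046 bp, at chr7:107154328-107155373, with a score of 84.3, above 41.7% of the list. It shared 998 bp with the H3K4me3 peak of ASCs and ended just beyond it, inside the wider site of young QSCs. These 2 peaks were not among the 11658 top-scoring peaks of the ASC list, as many as the list of young QSCs held, for which the lowest score was 159. With lists of equal length, 2 genes thus had H3K27me3 in ASCs, Col15a1 and Bmp6.

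Bmp6 had a single strong peak in ASCs, at chr13:38436750-38439008, 2259 bp wide with a score of 2398, above 96.2% of the list. It lay entirely within the H3K4me3 peak and took up 93.2% of it. No other H3K27me3 peak was called in the 185 kb window of Bmp6. At Bmp6 the H3K27me3 peak was thus about as wide as the H3K4me3 peak.

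Col15a1 was the member with a broad domain. Its window held 22 H3K27me3 peaks in ASCs, which covered 43.9 kb or 31.4% of the window, compared with 48.1 kb over all 5 windows. The peak over the main site, at chr4:47217818-47229595, was 11778 bp wide with a score of 3100. Of the 38307 peaks of the list, 101 were at least as wide. It covered the whole H3K4me3 peak, which made up 12.3% of its length. The other peaks were smaller, with 4 at lower and 17 at higher positions than the main site, the direction in which the gene is read in RefSeq, and 12 of the 22 lay within 30 kb of the site. Scores ranged from 63.2 to 3100, and 13 of the 22 were at least 100. Young and old QSCs had no H3K27me3 peak in this window, and the peaks nearest to the main site lay 195 kb away in young and 115 kb away in old QSCs.

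**Figure D3:**
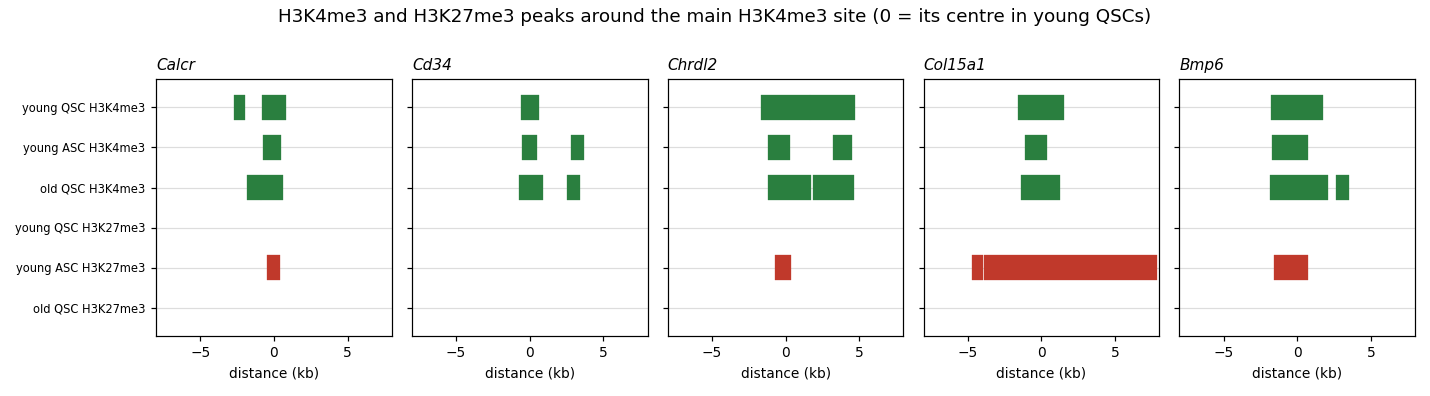
H3K4me3 (green) and H3K27me3 (red) peaks within 8 kb of the centre of the main H3K4me3 site, in young QSCs, young ASCs and old QSCs, with the x axis in kb from that centre. Peaks are drawn to scale, so the 27 bp gap at Chrdl2 is hardly visible. In ASCs H3K27me3 lies within or close to the H3K4me3 peak at Calcr, Chrdl2 and Bmp6, extends past both sides of it at Col15a1, and is missing at Cd34.

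Cd34 was the only member with no H3K27me3 peak in ASCs, and the peak nearest to its main site there lay 237 kb away. Its H3K4me3 peak was the narrowest of the 5 in ASCs, at 1000 bp with a score of 623. A smaller H3K4me3 peak, 891 bp wide with a score of 108, lay 2.22 kb from the main site in ASCs, and old QSCs had a similar one of 887 bp with a score of 58.4, but young QSCs had none.

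In ASCs both H3K4me3 and H3K27me3 were therefore called at 4 of the 5 main sites, compared with 9.30% of all H3K4me3 sites free of H3K27me3 in young QSCs. The 9.30% is over all such sites, weak ones and those without H3K4me3 in ASCs included. The main sites are the strongest of their windows, so the 2 are not matched. Because the libraries were separate, whether a single nucleosome or cell carried both could not be seen. The study displays these 4 genes for H3K27me3 in ASCs, so the contrast with 9.30% is not independent evidence. With equal numbers of top-scoring peaks, H3K27me3 in ASCs remained at 2 main sites.

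In old QSCs 0 of the 5 main sites overlapped H3K27me3, and no H3K27me3 peak was called in any of the windows. Of all H3K4me3 sites free of the mark in young QSCs, 11.0% overlapped it in old QSCs, and 13.3% of the highest-scoring sites of tiles did, so that 0 of 5 is not far from the background. By windows the background was higher, with 38.7% of the tiles holding an H3K27me3 peak in old QSCs. The H3K27me3 peak nearest to a main site in old QSCs lay 116 kb away at Calcr, 116 kb at Cd34, 277 kb at Chrdl2, 115 kb at Col15a1 and 43.7 kb at Bmp6, where its score was 53.3. In young QSCs the nearest lay between 170 kb and 1310 kb away. H3K27me3 in ASCs with none in old QSCs, the pattern of 4 members, was found at 7.96% of all H3K4me3 sites free of the mark in young QSCs. That share was likewise not limited to the strongest peak of a window. The study displays these 4 members for H3K27me3 in ASCs, so the contrast with 7.96% is not independent evidence. With equal numbers of top-scoring peaks, 2 members had H3K27me3 at the main site in ASCs.

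**Figure D4:**
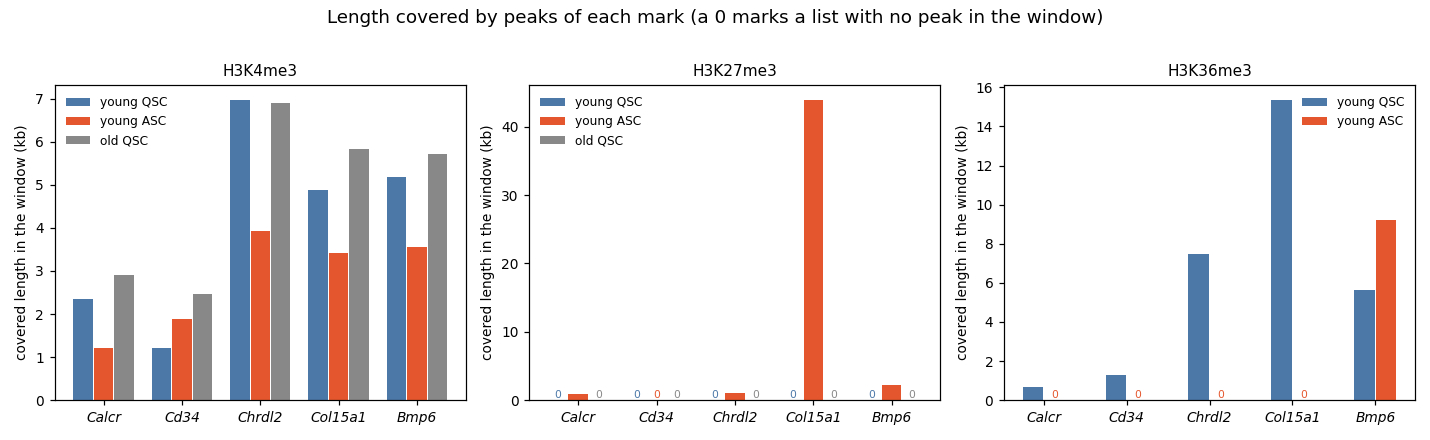
Length in kb covered by peaks of H3K4me3, H3K27me3 and H3K36me3 in the window of each gene, by cell state, with 1 library per bar and a printed 0 where the list had no peak. H3K27me3 covers 43.9 kb at Col15a1 in ASCs, and H3K36me3 in ASCs is found only at Bmp6, with 9.19 kb.

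H3K36me3 was called in the windows of all 5 genes in young QSCs, with 21 peaks covering 30.5 kb. How many tiles with H3K4me3 in young QSCs also held H3K36me3 was not computed. The count of 5 is therefore not read as a trait of these genes. In ASCs H3K36me3 was called in the window of Bmp6 alone, with 5 peaks covering 9.19 kb. The covered length in ASCs was 0.302 of that in young QSCs, whereas over the whole lists it was 2.41 times that in young QSCs. Only 3 of the 21 peaks of young QSCs, or 14.3%, were also called in ASCs, all 3 in the window of Bmp6, whereas 59.2% of the whole list of young QSCs overlapped a peak of ASCs. Of all 100 kb tiles with both H3K4me3 and H3K36me3 in young QSCs, 27.7% had no H3K36me3 peak in ASCs, compared with 4 of the 5 windows, which are 50 to 185 kb long. The members are quiescence genes, and the study displays 4 of them as downregulated in ASCs. These H3K36me3 contrasts are thus not independent evidence of a direction. The H3K36me3 peaks of the members were of ordinary strength, their median score being 87.0 and that of the whole young QSC list 83.8, and 8 of the 21 had a score of at least 100.

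Col15a1 had the most H3K36me3 in young QSCs, with 10 peaks of 730 to 2567 bp that covered 15.4 kb. They lay 34.7 to 69.0 kb from the main site, towards higher positions, and had scores of 59.8 to 197. In ASCs there were none, and of the 22 H3K27me3 peaks of ASCs 2 overlapped a place that carried H3K36me3 in young QSCs. Most of the H3K27me3 peaks lay on either side of the stretch that held H3K36me3 in young QSCs.

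Chrdl2 had 5 H3K36me3 peaks in young QSCs, of 1048 to 1911 bp, which covered 7.49 kb or 10.7% of the window. They started 8.10 kb from the main site and had scores of 55.8 to 120. None was called in ASCs, where the nearest H3K36me3 peak lay 52.2 kb from the main site, beyond the window. Cd34 had 1 peak in young QSCs, of 1307 bp with a score of 116, at 19.6 kb from the main site. Calcr had 1 weak peak of 693 bp with a score of 66.7, at 75.2 kb from the main site. A weak H3K4me3 peak of old QSCs, 454 bp wide with a score of 51.0, lay at the same place. With scores of at least 100, the peak of Cd34 remained and that of Calcr did not.

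Bmp6 differed from the others in this mark. Young QSCs had 4 H3K36me3 peaks in its window, covering 5.64 kb, and ASCs had 5, covering 9.19 kb. The strongest peak of young QSCs, 1834 bp wide with a score of 185, lay 136 kb from the main site and had no counterpart in ASCs. All other H3K36me3 peaks of both states were found in the last part of the window, 150 to 162 kb from the main site. In GRCm38 the end of Bmp6 overlaps the neighboring gene Txndc5, which encodes a protein disulfide isomerase, so that these peaks could not be assigned to either gene. The 2 strongest of ASCs, with scores of 324 and 365, lay there. When the windows were shortened by 10 kb at each side, Bmp6 had 3.63 kb of H3K36me3 in young QSCs and 4.02 kb in ASCs.

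Besides the main sites, the windows held 7 H3K4me3 peaks in young QSCs, 8 in ASCs and 10 in old QSCs. Most were weak, with median scores of 84.6, 101 and 96.2. Of the 7 in young QSCs, 3 overlapped a peak in ASCs and 4 a peak in old QSCs, beside 78.6% and 80.5% of all H3K4me3 peaks of young QSCs. The main sites were chosen as the strongest peaks, so these weaker peaks cannot be set against them. Bmp6 had a small peak 61.8 kb from its main site in young QSCs, with a score of 86.1, that was called in ASCs and old QSCs as well. Col15a1 had one 83.8 kb from its main site, with a score of 55.7, that was likewise called in all 3 states, and another 26.7 kb away, with a score of 114, that was found in both QSC libraries. In ASCs the latter place was covered by an H3K27me3 peak of 3555 bp with a score of 637 and had no H3K4me3 peak. At Chrdl2 each list had a further H3K4me3 peak 33.5 to 38.0 kb from the main site, but these did not overlap each other.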

How the data were processed

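ChIP-seq of H3K4me3, H3K27me3 and H3K36me3 gave 8 libraries, 1 for each cell state and mark, and the 3 input libraries were not analysed here. Per the labels, the authors aligned the reads with Bowtie to mm9 (versions not given in the sources used here). The deposited files are BED lists of peaks called by MACS against an input library, 1 list per library, and each peak has a score, 10 times the negative base 10 logarithm of its p-value. The lowest score is 50 (a p-value of 1e-05), and depth per library is unknown.

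Start positions were converted to count from 1. Peaks sharing at least 1 bp with a window or peak were counted, and lengths were clipped at window edges. The main H3K4me3 site of a gene was the highest-scoring peak of young QSCs in its window, the wider one on a tie. The same rule applied to 100 kb tiles, with peaks placed by their centre, gave a background. Genes named were the 5 members, and neighbors came from GRCm38 by name only. The members, windows and lists were chosen with earlier results of these data known. Python 3.11.15, numpy 2.4.6, pandas 2.3.3, scipy 1.17.1 and matplotlib 3.10.9 were used. Overlaps were tested on simulated data, where 700 of 700 planted overlaps were found, and checked against bedtools 2.31.1. Alternatives were only peaks scoring 100 or more (p-values up to 1e-10), equal numbers of top-scoring peaks per mark, windows changed by 10 kb on each side, merging of peaks less than 1 kb apart, and an overlap of 50% of the shorter peak. No test between cell states was made.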

Additional observations from a re-analysis of the deposited data

How the results depend on the processing

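H3K27me3 was absent from the 5 windows in young and old QSCs, and H3K4me3 was called at all 5 main sites in ASCs and old QSCs, under every alternative tried. Several counts and lengths moved by more than 1.5 times, and the cause was not tested beyond the construction of each alternative. With equal numbers of top-scoring peaks per mark, H3K27me3 in ASCs was found in the windows and at the main sites of 2 genes, with 12 peaks, and H3K36me3 in ASCs had 2 peaks covering 5.78 kb. With scores of at least 100, ASCs had 15 H3K27me3 peaks, at the main sites of 3 genes, and 2 H3K36me3 peaks covering 5.78 kb, while young QSCs had 8 H3K36me3 peaks covering 13.7 kb and 7 H3K4me3 peaks, so the change of H3K36me3 length from young QSCs to ASCs was -7.91 kb. With windows extended by 10 kb, H3K36me3 in ASCs had 8 peaks covering 14.7 kb, and with windows shortened by 10 kb it had 3 peaks covering 4.02 kb. Merging peaks less than 1 kb apart left 3 H3K36me3 peaks in ASCs and 13 in young QSCs. With the extended windows a stronger H3K4me3 peak outside the original window became the main site of Cd34 and Chrdl2, and H3K27me3 then overlapped the main sites of 3 genes and 4 had a narrower H3K4me3 peak in ASCs. The main H3K4me3 peak was narrower in ASCs at all 5 genes in the other alternatives run, which were chosen for this count after seeing the data, and narrower in old QSCs at 2 genes after merging and at 3 otherwise. Among the lengths and numbers of peaks of single genes, 22 moved with scores of at least 100, 8 with equal numbers of peaks, 7 with extended and 3 with shortened windows, and 4 after merging. The direction of the change in length summed over the 5 windows was the same in every alternative for each mark. For single genes it turned with scores of at least 100 for H3K4me3 in old QSCs, which was then lower than in young QSCs at Calcr and higher at Chrdl2. No paired analysis was possible because each cell state and mark had 1 library. The unknown depth limits what the absence of a peak can show, since a list holds only peaks past the score of 50.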
